A study of Mus musculus with 6 samples.

Results

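The microRNA processing genes are 8 genes, Dgcr8, Drosha, Dicer1, Ago1, Ago2, Ago3, Ddx5 and Ddx17, taken by gene name out of 21139 genes in a table of RNA-seq read counts. All 8 were found in the table and all 8 passed the filter on low counts, as did 13507 genes in total. The cells were CD4+ T cells from the spleen of C57BL/6J mice, activated through CD3 and CD28 for 2 days. In 3 libraries the cells also received CpdA, labelled as 20 µm and read here as µM, which the series' design calls an agonist of Gpr120. In the other 3 libraries they had medium alone. Gpr120 is a receptor for long-chain fatty acids, encoded by Ffar4. The sources used here name neither a vehicle for the medium group nor the age of the mice. The 8 genes were chosen by their known role with their CpdA and medium counts in these libraries already seen, so their levels and fold changes are given as descriptions, with no p-value.

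MicroRNAs (miRNAs) are short RNAs that guide Argonaute proteins to matching messenger RNAs, which are then silenced. In the nucleus the Microprocessor, made of the RNase III enzyme Drosha and its RNA-binding partner Dgcr8, cuts a hairpin out of a primary transcript, and the DEAD-box helicases Ddx5 and Ddx17 take part for a subset of hairpins. Exportin 5 carries the hairpin to the cytoplasm, Dicer cuts it to a short duplex, and one strand is loaded into an Argonaute. T cell activation is known to lower Argonaute protein and to remodel the miRNA pool of mouse CD4+ T cells.

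With CpdA, Dgcr8 rose 1.49-fold, the largest fold change among the 8 genes, while its partner Drosha stayed near its medium level. Ago2, the most abundant Argonaute, fell to 0.778 of its medium level. Of the helicases, Ddx5 rose and Ddx17 fell. At an adjusted p under 0.05 (edgeR), 5 of the 8 were called, 2 higher and 3 lower, where 33.2% of all genes tested were called, 16.5% higher and 16.7% lower. The median log2 fold change of the 8 genes was -0.001, against 0.0004 for all tested genes, and the median size of change was 0.12, against 0.14. Since the genes were listed with these values known, nothing is read from those counts.

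Library totals ran from 21407172 to 25952169 counts with CpdA and from 20247761 to 23640735 counts in medium. Gene counts of libraries in the same group differed by more than sampling noise (chi-square over its degrees of freedom, 2.18 to 4.18), so each was counted as a sample. The labels do not say whether replicates are separate mice or cultures, so p-values and errors may reflect technical spread alone. The CD4 T cell markers Cd3e, Cd3d, Cd4 and Trac summed to 807 to 824 CPM (counts scaled by the library total to a common depth) with CpdA and 920 to 936 CPM in medium, without overlap. Markers of CD8 T cells (Cd8a, Cd8b1) summed to 7.33 to 9.40 CPM with CpdA and 7.99 to 8.84 CPM in medium. Of B cell markers, Ms4a1 rose, averaging 3.16 CPM with CpdA and 2.16 CPM in medium (log2 fold change 0.54 ± 0.20, edgeR, adjusted p = 0.0349, no overlap). Cd79a averaged 5.42 CPM with CpdA and 6.15 CPM in medium and was not past the threshold (-0.17 ± 0.14, adjusted p = 0.388). The macrophage, NK cell and erythroid markers found in the table summed to at most 0.357 CPM per cell type in any library. The part of the lower CD4 T cell marker sum and of the B cell marker values in the results below was not tested, and in bulk RNA fewer cells of a type and less RNA per cell cannot be told apart.

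**Figure D1:**
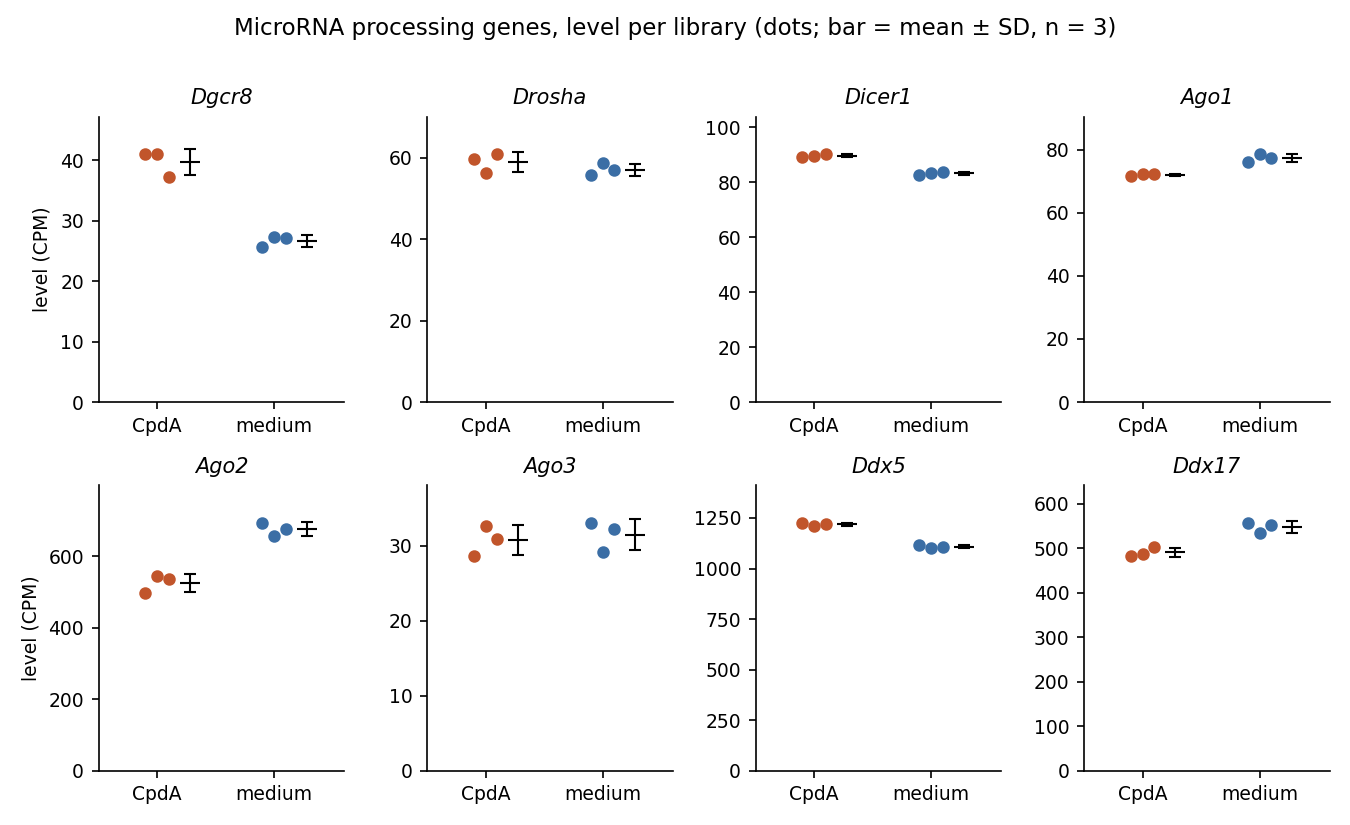
Levels of the 8 genes in CPM on linear axes that start at 0. Each dot is a library, CpdA left and medium right, and the bar beside the dots is the mean ± SD of 3 libraries. Dgcr8 lies between 37.3 and 41.1 CPM with CpdA, above its 3 medium libraries, and Ago2 between 496 and 545 CPM, below its medium libraries.

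Dgcr8 (ENSMUSG00000022718, minus strand, chr16:18253948-18289249, GRCm38) encodes the double-stranded RNA-binding subunit that recognises the primary hairpin. It had 41.1, 41.0 and 37.3 CPM with CpdA and 25.6, 27.3 and 27.2 CPM in medium. The lowest CpdA library lay above the highest medium library, a separation in either direction that 43.9% of tested genes showed. The means were 39.8 ± 2.2 CPM with CpdA and 26.7 ± 1.0 CPM in medium (SD, n = 3 each), and the log2 fold change was 0.56 ± 0.06 (SE). Fold changes of at least 0.5 in size on the log2 scale were found for 8.77% of tested genes. The last 825 bases of the gene overlap Trmt2a, a gene for a tRNA methyltransferase that runs on the opposite strand. The sources used here do not say whether the authors' counting used strand. Trmt2a itself had 66.3 ± 2.2 CPM with CpdA and 55.3 ± 0.9 CPM in medium, and rose by 0.25 on the log2 scale (edgeR, adjusted p = 2.71e-05), and its part in the Dgcr8 counts was not tested.

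The Dgcr8 transcript carries hairpins of its own, shown here because the Microprocessor is known to cut the Dgcr8 messenger RNA at such hairpins, which ties the amount of the transcript to the activity of the complex. The hairpin of miR-1306 (chr16:18284239-18284317, minus strand) lies in a coding exon, and that of miR-3618 (chr16:18284550-18284637) lies in untranslated exon sequence upstream of it, by the GENCODE M21 annotation. Sequences are RefSeq's on GRCm38.p6, written 5′ to 3′. Capitals mark both mature arms in the hairpin, and the seed, bases 2 to 8, in the single mature sequences.
miR-1306 hairpin: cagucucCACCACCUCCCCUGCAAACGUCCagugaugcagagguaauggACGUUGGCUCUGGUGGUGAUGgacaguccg
miR-1306-5p: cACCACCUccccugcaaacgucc
miR-1306-3p: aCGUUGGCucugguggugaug
miR-3618-5p: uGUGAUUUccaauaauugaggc
miR-3618-3p: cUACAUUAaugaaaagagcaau
The 4 mature arms share no seed. Gene counts do not tell cut from uncut transcripts, so cleavage at these hairpins was not measured.

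Drosha (ENSMUSG00000022191, plus strand, chr15:12824815-12935290) encodes the enzyme that makes the cut. It had 59.7, 56.3 and 60.9 CPM with CpdA and 55.7, 58.6 and 56.9 CPM in medium. The groups overlapped, and the log2 fold change of 0.04 ± 0.05 was smaller than its SE. Because levels of different genes can be compared only per length, the ratio of the subunits was taken on FPKM (CPM per kilobase of gene length). Dgcr8 over Drosha was 0.695, 0.737 and 0.619 with CpdA and 0.464, 0.471 and 0.484 in medium. The mean of these ratios was 0.684 ± 0.060 with CpdA and 0.473 ± 0.010 in medium (SD, n = 3), with no overlap between the groups.

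The helicases had the highest levels per length of the 8 genes. Ddx5 (ENSMUSG00000020719, minus strand, chr11:106780355-106789185), which encodes the helicase p68, had 1227, 1209 and 1219 CPM with CpdA and 1115, 1101 and 1105 CPM in medium. The groups did not overlap, and the log2 fold change was 0.13 ± 0.02. Ddx17 (ENSMUSG00000055065, minus strand, chr15:79527707-79546741), its close relative p72, had 484, 486 and 503 CPM with CpdA and 558, 534 and 553 CPM in medium. Here the CpdA libraries were the lower ones, again without overlap, and the log2 fold change was -0.17 ± 0.03. The FPKM ratio of Ddx17 over Ddx5 was 0.304 ± 0.007 with CpdA and 0.374 ± 0.007 in medium (SD, n = 3). Both genes encode related proteins, and the sources used here do not say how reads that match both were counted.

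Dicer1 (ENSMUSG00000041415, minus strand, chr12:104687742-104751952) encodes the enzyme that cuts the exported hairpin. It had 89.3, 89.6 and 90.3 CPM with CpdA and 82.8, 83.5 and 83.7 CPM in medium. The libraries of each group lay close together and the groups did not overlap, but the log2 fold change was small, 0.10 ± 0.04, and not past the threshold. It passed with library size as the scaling, at a log2 fold change of 0.11.

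Ago2 (ENSMUSG00000036698, minus strand, chr15:73095844-73184840) encodes the Argonaute that can itself cut a target. It had 496, 545 and 536 CPM with CpdA and 695, 656 and 677 CPM in medium. The highest CpdA library was far below the lowest medium library. The log2 fold change was -0.37 ± 0.03, and between -0.40 and -0.33 without any 1 library. Its end overlaps 1711 bases of Chrac1, a chromatin remodelling gene on the opposite strand, which had 38.3 ± 0.7 CPM with CpdA and 38.9 ± 1.3 CPM in medium. The CpdA and medium libraries of Chrac1 overlapped.

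Ago1 and Ago3 lie close together on chromosome 4. Ago1 (ENSMUSG00000041530, minus strand, chr4:126435012-126468583) had 71.5, 72.1 and 72.1 CPM with CpdA and 76.1, 78.6 and 77.2 CPM in medium. The groups did not overlap, and the log2 fold change was -0.11 ± 0.04. The Ago1 call was lost without CpdA replicate 1 (-0.11), 2 (-0.12) or 3 (-0.11), without medium replicate 2 (-0.10) or 3 (-0.11), with DESeq2 and without a count filter, while the fold change kept its direction. Ago3 (ENSMUSG00000028842, minus strand, chr4:126331704-126429556) had 28.6, 32.7 and 30.9 CPM with CpdA and 33.1, 29.1 and 32.3 CPM in medium. Its groups overlapped, with a log2 fold change of -0.04 ± 0.06 that was 0.01 without CpdA replicate 1.

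The remaining Argonaute gene, Ago4, is not one of the 8 and was tested with all genes. It lies near Ago1 (chr4:126489541-126533472) and was scarce, with 27, 26 and 29 counts with CpdA and 61, 47 and 61 counts in medium. That is 1.14 ± 0.13 CPM with CpdA and 2.56 ± 0.52 CPM in medium (SD, n = 3). Ago4 fell, with a log2 fold change of -1.17 ± 0.24 (edgeR, adjusted p = 0.000143), lower in 3 of 3 CpdA libraries than in any medium library. The sum of Ago1 to Ago4 was 50.5 ± 2.0 FPKM with CpdA and 62.4 ± 1.4 FPKM in medium. Ago2 made up 75.2, 76.5 and 76.3% of that sum with CpdA and 79.5, 78.6 and 79.0% in medium. Ago1 made up 19.7 ± 0.7% with CpdA and 17.1 ± 0.7% in medium, and Ago3 3.90 ± 0.11% and 3.23 ± 0.15%. These shares rest on the deposited gene lengths, which for Ago2 and Ago3 (13705 and 15595 bases) are far longer than for Ago1 (7227 bases).

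**Figure D2:**
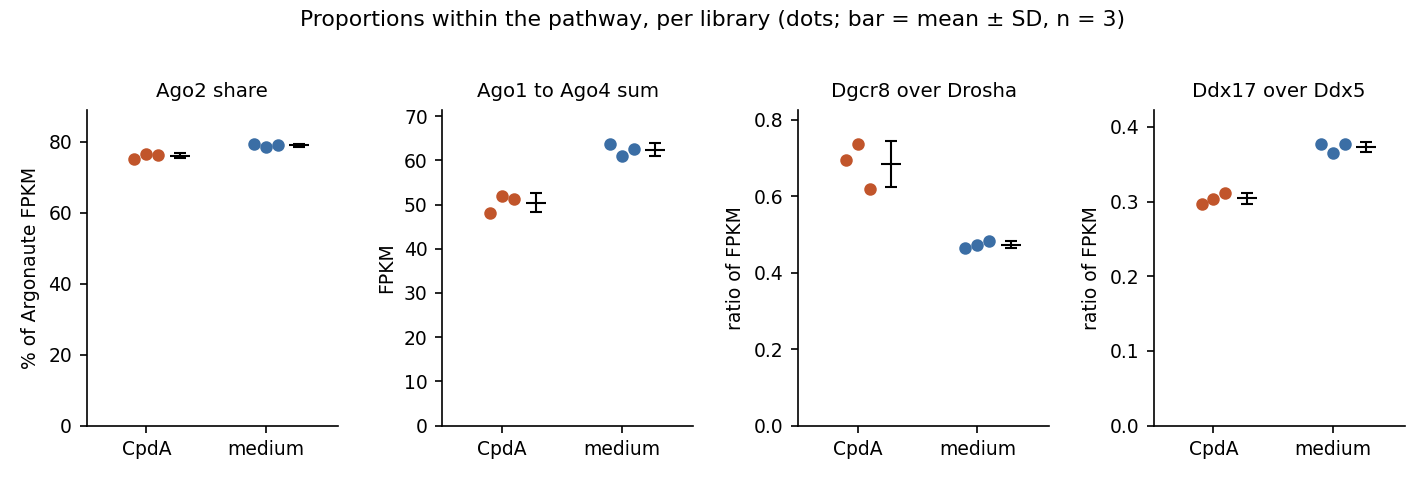
Ago2 share of the summed Argonaute FPKM, that sum in FPKM, and the FPKM ratios of Dgcr8 over Drosha and of Ddx17 over Ddx5, on linear axes from 0. Dots are libraries, CpdA left and medium right, and bars are the mean ± SD of 3. In each of the 4 panels the CpdA and medium libraries do not overlap: the Dgcr8 ratio is higher with CpdA and the other 3 quantities are lower.

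Per length, the genes spanned a wide range. With CpdA the order of mean levels was Ddx5 (339 FPKM), Ddx17 (103), Ago2 (38.4), Drosha (12.9), Ago1 (9.95), Dicer1 (9.11), Dgcr8 (8.80) and Ago3 (1.97). In medium the order was the same, at 308, 115, 49.3, 12.5, 10.7, 8.46, 5.91 and 2.02 FPKM. With CpdA the libraries of Dicer1 (9.06 to 9.17 FPKM) and Dgcr8 (8.25 to 9.08 FPKM) overlapped, and no other neighbours in that order did. In medium no neighbours overlapped, and Dgcr8 (5.66 to 6.04 FPKM) lay below Dicer1 (8.40 to 8.50 FPKM). Over all 6 libraries, Ddx5 stood at the 98.7th percentile of tested genes by mean FPKM, Dgcr8 at the 49.5th and Ago3 at the 26.3rd.

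**Figure D3:**
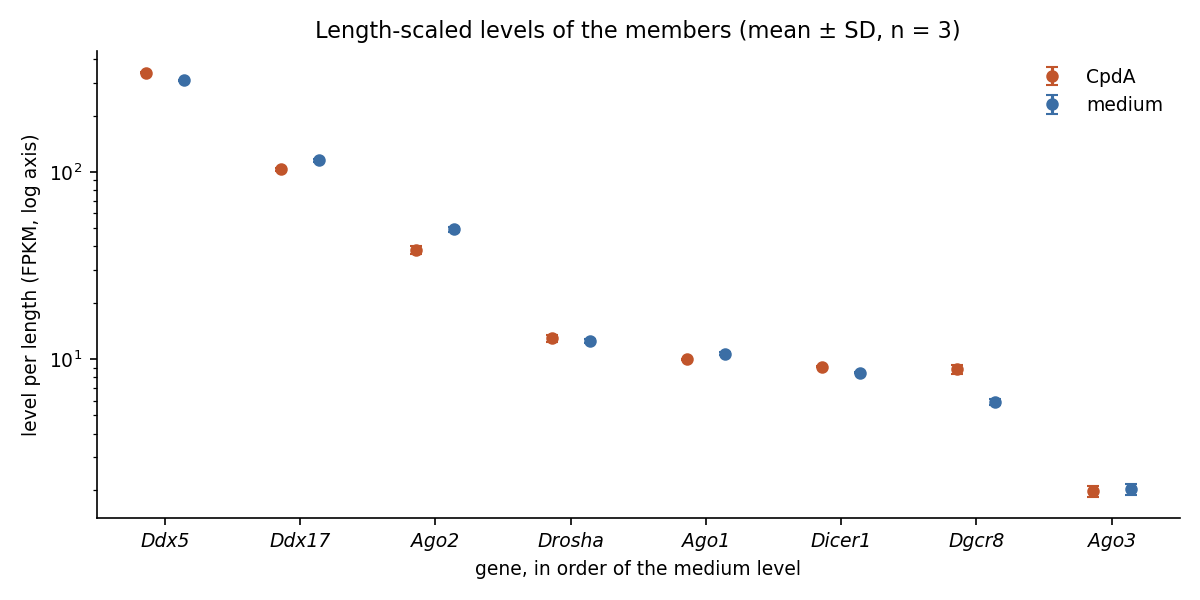
Mean level per length (FPKM, log axis) of the 8 genes, in the order of their medium level, with CpdA left of medium for each gene. Error bars are the SD of 3 libraries. The order is the same in both groups, and with CpdA Dgcr8 (8.80 FPKM) lies close to Dicer1 (9.11 FPKM).

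Pseudogenes, T cell receptor and immunoglobulin gene segments, and genes with clone names (Gm or Rik) were left out of the search for near profiles. Among the other tested genes, those whose profile over the 6 libraries was nearest to that of Dgcr8 were Isg15, Nop56, Tgtp1 and Heatr3. A profile is the log2 CPM of a gene, here with TMM scaling, minus its own mean. The root mean square differences of these genes from Dgcr8 were 0.0450, 0.0479, 0.0516 and 0.0562. The Dgcr8 profile itself had a root mean square of 0.288. The log2 fold changes of Isg15, Nop56, Tgtp1 and Heatr3 were 0.58, 0.53, 0.49 and 0.53. With only 2 groups, a near profile mostly means a like fold change and little spread within groups. Changes of at least 0.5 in size were found for 8.77% of tested genes, and shared regulation was not tested. Isg15 encodes a ubiquitin-like protein induced by interferon, Tgtp1 an interferon-induced GTPase and Nop56 a nucleolar protein of small ribonucleoproteins. The Drosha and Dicer1 profiles were nearly flat (root mean squares of 0.0428 and 0.0493), and the nearest to them were Nacc1, Lsm14b, Hsd17b4 and Afg3l1 for Drosha and Hnrnpm, Ankrd52, Tm9sf3 and Ppp6r1 for Dicer1.

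Other genes of the pathway were taken from 5 lists by their known roles, 88 genes in all, of which 85 were tested. The lists were chosen with earlier results of these data known, so nothing is read from their shares of called genes. By the edgeR test adjusted over all genes, 35 rose and 12 fell, or 55.3%, against 33.2% of all genes tested, with a median log2 fold change of 0.05. The lists overlap with other processes, since many of these genes serve splicing, protein folding or DNA replication as well. For each changed gene named from these lists except Ctdsp1, the CpdA and medium libraries did not overlap, which held for 43.9% of all genes tested. Most of these genes were named for their small p, which favours such a separation.

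The nuclear cofactors of primary miRNA processing were mostly higher. Of 18 genes 14 rose and 1 fell, 83.3% against 33.2%, with a median log2 fold change of 0.17. By mean FPKM these genes ran from the 55th to the 99.3rd percentile of tested genes. Their share was not compared with that of genes of like level. Ddx3x, a DEAD-box helicase, had 368 ± 2 CPM with CpdA and 292 ± 10 CPM in medium (SD, n = 3), and rose by 0.32 ± 0.03 on the log2 scale (adjusted p = 1.69e-11). Srsf3, a splicing factor that promotes hairpin cleavage in human cells, rose by 0.28, Srrt, a partner of the nuclear cap-binding complex, by 0.28 and Tardbp, an RNA-binding protein that interacts with Drosha, by 0.20. Safb2, a nuclear scaffold protein that helps the cleavage of some clustered hairpins, fell by 0.21 (adjusted p = 1.2e-06).

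In export, dicing and loading, 8 of 13 genes rose and 2 fell, 76.9% against 33.2%, with a median of 0.16. Xpo5, which encodes exportin 5, had 76.5, 73.5 and 78.5 CPM with CpdA and 63.8, 59.6 and 64.0 CPM in medium. It rose by 0.28 ± 0.04 on the log2 scale (adjusted p = 3.68e-06). The Dicer partner Tarbp2 rose by 0.14 (adjusted p = 0.0138), a call lost without CpdA replicate 1 (0.12), CpdA replicate 3 (0.12) or medium replicate 3 (0.13). Prkra, another Dicer partner, was not past the threshold, at -0.06 ± 0.10 on the log2 scale (adjusted p = 0.689). The chaperone genes Hsp90aa1 (0.24), Hspa8 (0.23), Ptges3 (0.29) and Ahsa1 (0.36), of the machinery that opens Argonautes for loading, rose. Hsp90ab1, in the same list, had 4977 ± 93 CPM with CpdA and 5054 ± 69 CPM in medium, with overlapping groups. Its log2 fold change of -0.03 ± 0.02 was not past the threshold (adjusted p = 0.3015). Besides Ago4, Tsnax fell by 0.12 (adjusted p = 0.00663), a call that was lost without medium replicate 1 (-0.10).

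Silencing effectors act after an Argonaute has found its target. Of 22 genes 3 rose and 4 fell, 31.8% against the 33.2% of all genes, with a median of -0.02. Of the Tnrc6 scaffold genes, which link Argonautes to deadenylases, Tnrc6b had 87.9, 96.8 and 94.2 CPM with CpdA and 116, 104 and 116 CPM in medium. Tnrc6b fell by 0.28 ± 0.04 on the log2 scale (adjusted p = 2.65e-06). Tnrc6c fell by 0.13 (adjusted p = 0.0163), but was not called without CpdA replicate 1 (-0.12) or medium replicate 3 (-0.12), and Tnrc6a was not past the threshold, at 0.05 (adjusted p = 0.312). Eif4enif1, which represses capped messages, rose by 0.19 and Cnot2, a subunit of the CCR4-NOT deadenylase complex, by 0.16. The log2 fold changes of Limd1 (0.11), Cnot6l (-0.11) and Pan2 (-0.15) were past the threshold, and each was lost without medium replicate 3 (0.09, -0.09 and -0.14). Limd1 was also lost without CpdA replicate 2 (0.09), CpdA replicate 3 (0.13) or medium replicate 1 (0.11), and Pan2 without CpdA replicate 3 (-0.12). With DESeq2 neither Limd1 (adjusted p = 0.0885) nor Pan2 (adjusted p = 0.0584) was called. Without medium replicate 3 the number of effectors that fell was 1.

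Among genes of small RNA tailing and turnover 4 of 11 tested rose and 3 fell, 63.6% against 33.2%, with a median of -0.07. The exonuclease gene Xrn2 rose by 0.21 and Pnpt1, a polynucleotide phosphorylase of mitochondria, by 0.21. Zswim8, the substrate receptor of a ubiquitin ligase that degrades Argonautes on miRNA decoys, rose by 0.13, a call lost without medium replicate 1 (0.12). Eri1, an exonuclease that trims small RNAs, rose by 0.10 (adjusted p = 0.0332). That call was lost without CpdA replicate 2 (0.08), medium replicate 2 (0.08) or medium replicate 3 (0.10), and with DESeq2 (0.10, adjusted p = 0.0621). Snd1 (-0.14), the uridylyl transferase gene Zcchc6 (-0.18) and Zc3h12a (-0.21), which encodes the endonuclease Regnase-1, fell. Zc3h12a was not called without CpdA replicate 3 (-0.16).

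**Figure D4:**
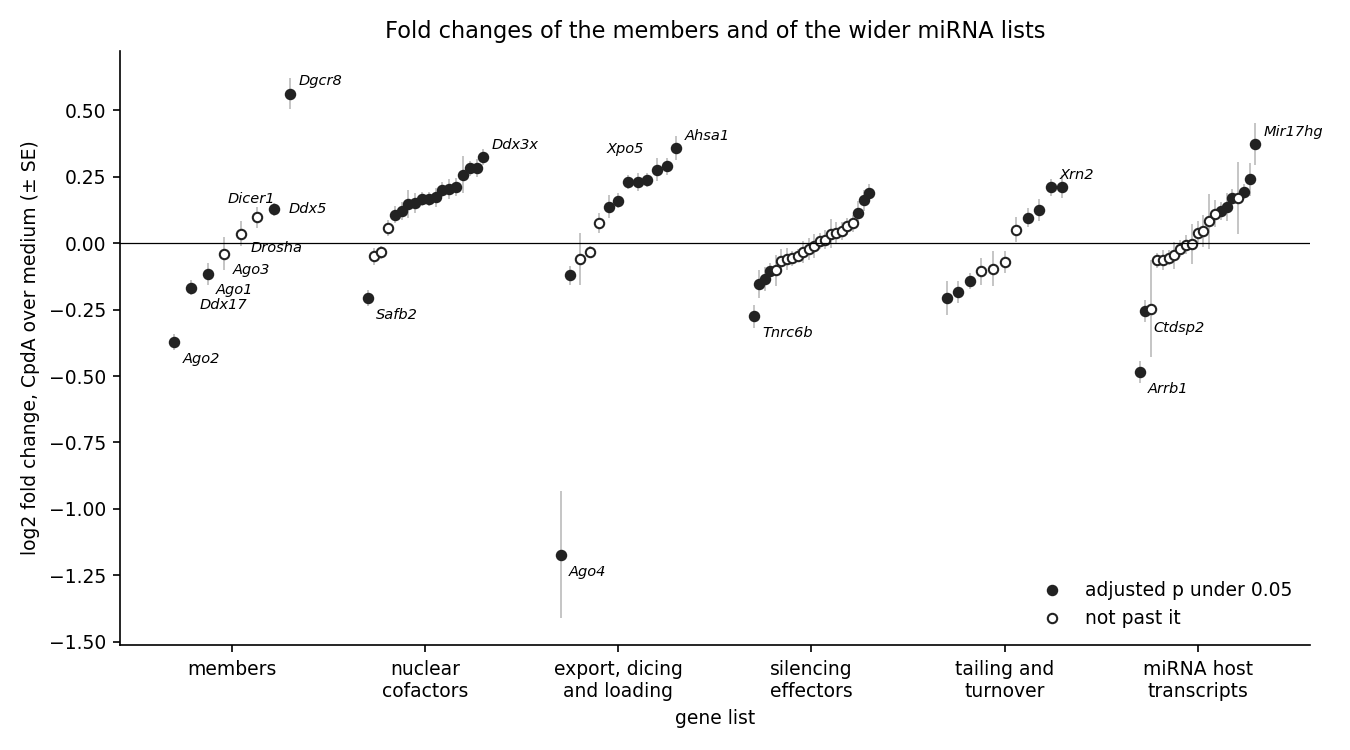
Log2 fold change of CpdA over medium with its SE for the 8 members and for the tested genes of 5 wider lists, sorted within each list. Filled points have an adjusted p under 0.05 (edgeR, over all tested genes). Dgcr8 (0.56) is the highest of the members, 14 of 18 nuclear cofactors are filled above 0, and Ago4 (-1.17) is the lowest point.

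Host transcripts, from which primary miRNAs are cut, formed the last list. Of 21 tested 6 rose and 2 fell, 38.1% against the 33.2% of all genes tested, with a median of 0.04. By position and strand, a hairpin was matched in 20 of the 22 genes listed. None was matched in Dalrd3 or Dnm2, which were tested and not called. Mir17hg, the noncoding transcript of the miR-17-92 cluster (chr14:115042879-115046727, plus strand), had 21.3, 18.1 and 20.04 CPM with CpdA and 14.7, 15.5 and 15.3 CPM in medium. It rose by 0.37 ± 0.08 on the log2 scale (adjusted p = 0.000221), with 3 of 3 CpdA libraries above the medium libraries. Mcm7 (chr5:138164583-138172422, minus strand), a subunit of the replicative helicase whose gene holds the related cluster of miR-106b, miR-93 and miR-25, had 265 ± 7 CPM with CpdA and 233 ± 13 CPM in medium, and rose by 0.17 on the log2 scale (adjusted p = 0.000102). Both clusters encode miRNAs with the same seeds, printed here for that reason, with the seed in capitals. AAAGUGC is shared by 4 of them.
miR-17-5p: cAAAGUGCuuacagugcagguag
miR-20a-5p: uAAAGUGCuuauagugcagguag
miR-106b-5p: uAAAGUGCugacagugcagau
miR-93-5p: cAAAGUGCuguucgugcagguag
AUUGCAC is shared by the next pair, and GUGCAAA by the last pair, both of which come from Mir17hg.
miR-92a-3p: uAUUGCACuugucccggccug
miR-25-3p: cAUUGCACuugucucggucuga
miR-19a-3p: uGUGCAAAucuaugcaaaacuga
miR-19b-3p: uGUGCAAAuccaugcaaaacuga
In the Mir17hg cluster miR-17-5p lies at chr14:115043684-115043706 and miR-92a-3p at chr14:115044476-115044496, and in Mcm7 miR-106b-5p lies at chr5:138165787-138165807 and miR-25-3p at chr5:138165332-138165353. RNA libraries of this kind measure the host transcript, and the mature miRNAs were not measured.

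Smc4 and Dleu2 host the miR-15 and miR-16 hairpins, which share the seed AGCAGCA. Smc4 (chr3:69004738-69034623), a condensin subunit, had 384 ± 9 CPM with CpdA and 333 ± 6 CPM in medium and rose by 0.19 (adjusted p = 9.81e-07). Dleu2 (chr14:61602839-61682373), a noncoding RNA, was at 5.56 ± 0.45 CPM with CpdA and 4.90 ± 0.49 CPM in medium, with overlapping groups and a log2 fold change of 0.17 ± 0.14 (adjusted p = 0.362).
miR-15b-5p: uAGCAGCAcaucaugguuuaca
miR-15a-5p: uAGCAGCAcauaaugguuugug
miR-16-5p: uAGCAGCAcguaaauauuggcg
Of these, miR-15b-5p (chr3:69009775-69009796) lies in Smc4, miR-15a-5p (chr14:61632075-61632096) in Dleu2 and miR-16-5p in both genes.

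Nfyc, a subunit of the NF-Y transcription factor that hosts miR-30c-1 and miR-30e, rose by 0.24 (adjusted p = 0.002). Arrb1, the β-arrestin gene that hosts miR-326, had 249, 285 and 268 CPM with CpdA and 392, 356 and 368 CPM in medium, and fell by 0.49 ± 0.04 on the log2 scale (adjusted p = 2.31e-08). Ctdsp2, a phosphatase gene that hosts miR-26a-2, fell by 0.26 (adjusted p = 2.62e-06). Ctdspl, which holds the same mature miR-26a-5p, was not past the threshold, at 0.08 (adjusted p = 0.597). Ctdsp1, which holds miR-26b-5p with the same seed, rose by 0.14 (adjusted p = 0.0448), with overlapping groups. Mir22hg, the host of miR-22, was at 20.1 ± 1.6 CPM with CpdA and 20.03 ± 1.31 CPM in medium, with overlapping groups. Mir155hg was not analysed here.

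**Figure D5:**
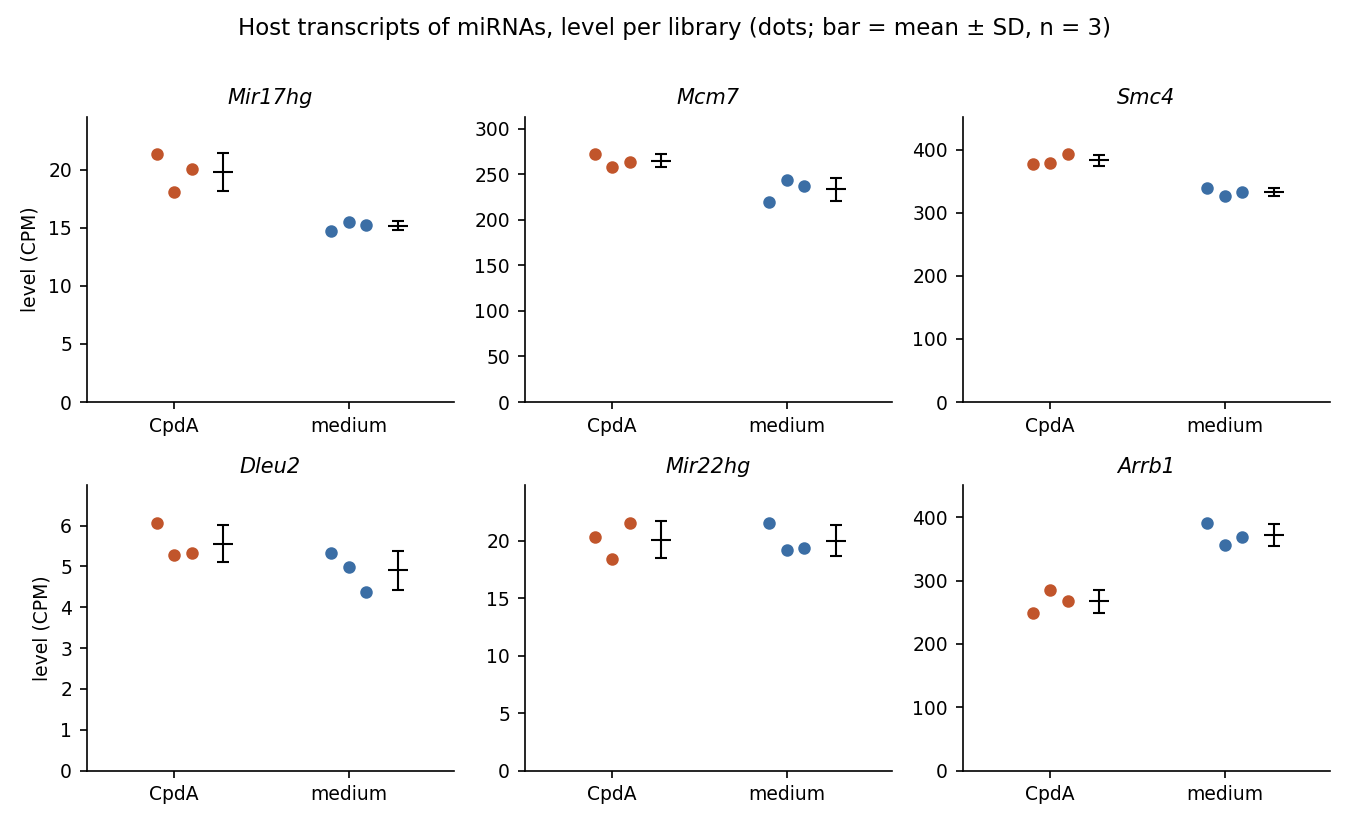
Levels in CPM of 6 host transcripts on linear axes from 0, with a dot per library, CpdA left and medium right, and the mean ± SD of 3 libraries as bars. Mir17hg, Mcm7 and Smc4 lie higher with CpdA and Arrb1 lower, without overlap, and Dleu2 and Mir22hg overlap.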

How the data were processed

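RNA-seq counts of 3 CpdA and 3 medium libraries were grouped by the labels. The authors deposited whole-number read counts per gene, with no normalization, per the file headers. The authors also deposited FPKM values, and CPM per kilobase of the gene length in the table matches them to a relative 1.86e-07. CASAVA 1.8, GRCm38 and mm10 are named in the submitters' processing notes. The aligner, counter, annotation and strand setting were not given in the sources used here.

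Counts were tested in R 4.3.3 with the quasi-likelihood test of edgeR 4.0.16 (TMM scaling, robust dispersions, no covariates) after filterByExpr (count of 10, total of 15). P-values were adjusted by Benjamini-Hochberg over all 13507 genes, and called under 0.05. Levels in CPM use the library total. Profiles use TMM-scaled totals of the tested genes and a prior count of 2. The SE is the fold change divided by the root of its F statistic. The code of the test was run on simulated counts in which far fewer genes changed than were called here. That run gives no error rate for these calls. The shallowest library held 20247761 counts, where 0 counts leave room for 0.148 CPM, counting error only.

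The members and the lists were chosen with earlier results of these data known. Named genes are the 8 members, up to 4 changed genes with the smallest p per list and direction, a fixed set of 10 (Xpo5, Tarbp2, Prkra, Ago4, the 3 Tnrc6 genes, Mir155hg, Mir17hg, Dleu2), the 4 nearest profiles of Dgcr8, Drosha and Dicer1, and cell type markers, of which a list is reported only in part. Mir22hg, Ctdsp1, Ctdspl, Dalrd3, Dnm2, Hsp90ab1, Lin28a, Lin28b and the overlapping or adjoining genes lie outside this rule. They were named after their values were seen. Alternatives were DESeq2 1.42.0, limma-voom (limma 3.58.1), other scalings and filters, a replicate block and each library left out. Sequences are RefSeq's, matched by position.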

Additional observations from a re-analysis of the deposited data

How the results depend on the processing

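The directions of Dgcr8, Drosha, Dicer1, Ago1, Ago2, Ddx5 and Ddx17 held under all alternatives run, and Dgcr8, Ago2, Ddx5 and Ddx17 were called in each. As the members were listed with these values known, calls of members describe the processing only and are no support. Without any 1 library the log2 fold change ran from 0.54 to 0.61 for Dgcr8. Ago1 was no longer called without a count filter (-0.11), with DESeq2 (-0.11) or with the replicate block (-0.11), and ran from -0.12 to -0.10 with 1 library left out. Dicer1 was called with library size alone (0.11). Ago3 ran from -0.093 to 0.0082, with the sign changed without CpdA replicate 1 (0.0082). With 1 library left out, the number of genes that fell ran from 1 to 2 in the export, dicing and loading list and from 1 to 5 among silencing effectors. The number of changed genes, 4483, was 3645 with DESeq2 and 3660 to 4336 with 1 library left out. The share of Ago2 in the Argonaute sum differed by -2.99 percentage points on FPKM and by -2.35 on counts. The cause of these shifts was not tested. The fits with 1 library left out also had fewer samples, and the part of that was not tested either. Same-numbered libraries did not deviate together (correlations of -0.02, -0.01 and -0.0006), so the numbers were not taken as pairs, and the replicate block gave 3936 changed genes and 4 called members, where 5 were called without it. Under the block the calls of Eri1 (0.10, adjusted p = 0.0844) and Limd1 (0.11, adjusted p = 0.0748) were lost too. Depth limits Ago4, which had 26 to 61 counts per library.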

Other observations

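Genes that adjoin the members gave the following values. On the opposite strand, 157 bases before Drosha, 6030458C11Rik had 37.5 ± 0.6 CPM with CpdA and 34.6 ± 1.9 CPM in medium, a log2 fold change of 0.10 ± 0.06 (edgeR, adjusted p = 0.169). Cep95, a centrosomal protein gene, begins 66 bases from Ddx5 on the opposite strand. Cep95 had 19.8 ± 1.1 CPM with CpdA and 18.95 ± 0.78 CPM in medium, with overlapping groups. Polg2 lies 817 bases from Ddx5 on the same strand. Polg2 had 10.06 ± 0.39 CPM with CpdA and 10.52 ± 0.43 CPM in medium, with overlapping groups. The Polg2 log2 fold change was -0.08 ± 0.10 (edgeR, adjusted p = 0.599). Kdelr3, a receptor that returns proteins to the endoplasmic reticulum, meets the end of Ddx17 with an overlap of 33 bases. It fell, with 4.75 ± 0.04 CPM with CpdA and 7.27 ± 0.67 CPM in medium, a log2 fold change of -0.62 ± 0.13 (adjusted p = 0.000138), and had at most 163 counts in a library.

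The Lin28 genes, whose proteins block the processing of let-7 miRNAs in stem cells, were near the limit of detection. Lin28a had 2, 6 and 4 counts with CpdA and 3, 1 and 4 counts in medium, and Lin28b had 0, 0 and 1 counts with CpdA and 1, 2 and 1 counts in medium. Neither passed the filter on low counts, so neither was tested.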
